A study of Homo sapiens with 6 samples.

Results

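The genes described here are 39 genes of homologous recombination and of the Fanconi anaemia pathway, of 60605 genes in the deposited table. They were taken by symbol from a list of the pathways' helicases, nucleases, strand-exchange factors, checkpoint kinases and Fanconi proteins, and each symbol matched 1 row. RNA came from HepG2, an established line from a human liver cancer, labelled as wild type and grown in DMEM with serum. A lentivirus delivered either a control hairpin (3 libraries named sh-control) or one targeting circFTO, a circular RNA from the FTO gene (3 libraries named sh-circFTO). No other group, time or dose is labelled. Nothing in the labels tells separate cultures from repeat libraries, so each p-value covers the spread among these libraries alone, and that may be technical.

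Homologous recombination copies an intact sister chromatid to mend a broken chromosome. Broken ends are first cut back to single strands, BRCA1 and BRCA2 with their partners then load a recombinase on them, and helicases and nucleases resolve the joined molecules. The Fanconi pathway unhooks crosslinks between the strands of DNA: a core complex of Fanconi proteins attaches ubiquitin to FANCD2 and FANCI, which then bring in nucleases and recombination. Both pathways act mainly in S and G2 phase, and E2F transcription factors are known to drive many of the genes in cycling cells.

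Of the 39 genes, 36 passed the filter of an FPKM (count scaled to exonic length and to the library's total) of at least 1 in at least 3 libraries. Of these 36, 25 fell in sh-circFTO (69.4%), 4 rose and 7 did not pass the test. Over all 12865 genes tested, 34.8% fell and 34.9% rose (69.7% either way) by the same rule, a Benjamini-Hochberg adjusted p under 0.05 in edgeR's quasi-likelihood fit. The median log2 fold change was -0.55 over the 36 genes and 0.00 over all genes tested. When only library size was used for scaling, 21 of the 36 were called lower and 5 higher at a median of -0.41. In that fit 3471 of the 12865 genes were called lower and 5700 higher, and the median of all genes moved to 0.15. A fall of at least 2-fold was reached by 8 of the 36 (22.2%) and by 980 of all genes tested (7.62%). BRIP1 and BLM are among these 8. Both, and also FANCM, reached an FPKM of 1 in all 3 sh-control libraries but in fewer sh-circFTO libraries. The 3 sh-circFTO libraries all lay below the 3 sh-control libraries for 25 of the 36 genes and all above them for 4, where 35.7% and 35.8% of all genes tested did so (71.5% together). Under a filter on counts (edgeR's filterByExpr) that all 39 genes passed, 26 fell and 4 rose, where 33.1% and 32.4% of 15386 genes did so (65.5% either way). In that wider set the groups did not overlap for 67.9% of genes, 33.2% lower and 34.8% higher.

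**Figure D1:**
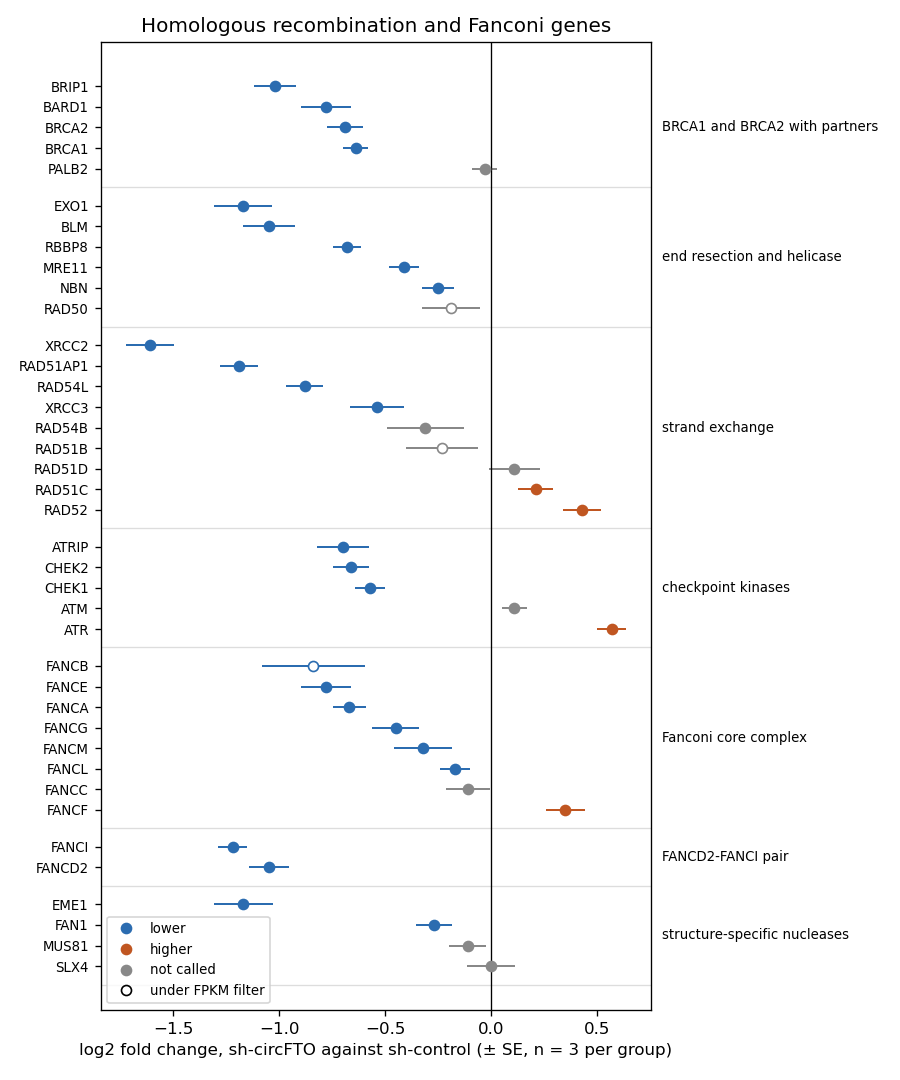
Log2 fold change of sh-circFTO against sh-control (horizontal axis, ± SE, 3 libraries a group) for all 39 genes, ordered by role. XRCC2 lies farthest to the left at -1.61 and ATR farthest to the right at 0.57, and open points are the 3 genes under the FPKM filter, taken from a fit with a filter on counts.

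The promoters of the 5 genes with the lowest share of control left, among those with a RefSeq window, are shown to let the letters be read beside the falls. These windows run from 250 bases before to 50 bases after the transcription start and are from RefSeq on GRCh38.p14, written along the gene's own strand. Capitals mark a 7-base core of the E2F site, searched on either strand in 4 forms: the letters TTCCCGC, the letters TTCGCGC, the letters TTGGCGC and the letters TTGCCGC. The 5 genes are XRCC2, a partner of RAD51D in strand exchange, RAD51AP1, which stimulates strand pairing, the exonuclease EXO1, the nuclease subunit EME1 and the helicase BLM.
XRCC2, chr7:152676092-152676391, minus strand: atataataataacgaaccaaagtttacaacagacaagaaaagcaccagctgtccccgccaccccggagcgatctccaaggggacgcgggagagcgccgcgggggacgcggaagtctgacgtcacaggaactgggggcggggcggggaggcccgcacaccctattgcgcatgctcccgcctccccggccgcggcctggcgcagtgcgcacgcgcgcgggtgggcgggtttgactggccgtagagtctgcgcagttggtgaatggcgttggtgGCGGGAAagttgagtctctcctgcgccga
RAD51AP1, chr12:4538640-4538939, plus strand: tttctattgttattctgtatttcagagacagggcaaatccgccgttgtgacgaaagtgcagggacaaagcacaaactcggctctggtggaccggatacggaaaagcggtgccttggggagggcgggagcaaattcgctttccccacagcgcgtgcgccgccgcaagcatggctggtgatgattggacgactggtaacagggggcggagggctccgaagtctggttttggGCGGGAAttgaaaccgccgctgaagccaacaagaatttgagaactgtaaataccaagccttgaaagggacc
EXO1, chr1:241847954-241848253, plus strand: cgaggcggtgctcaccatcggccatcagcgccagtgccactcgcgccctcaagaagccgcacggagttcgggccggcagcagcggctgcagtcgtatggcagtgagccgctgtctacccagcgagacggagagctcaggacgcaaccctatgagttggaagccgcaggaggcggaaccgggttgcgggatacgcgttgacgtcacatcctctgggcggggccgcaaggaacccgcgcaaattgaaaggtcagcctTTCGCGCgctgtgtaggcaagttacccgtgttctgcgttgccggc
EME1, chr17:50372979-50373278, plus strand: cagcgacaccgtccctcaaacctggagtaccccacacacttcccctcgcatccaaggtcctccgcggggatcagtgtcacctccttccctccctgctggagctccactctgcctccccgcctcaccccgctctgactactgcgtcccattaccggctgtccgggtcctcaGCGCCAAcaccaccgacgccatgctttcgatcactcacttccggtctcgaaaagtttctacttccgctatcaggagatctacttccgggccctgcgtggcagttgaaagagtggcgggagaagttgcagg
BLM, chr15:90717096-90717395, plus strand: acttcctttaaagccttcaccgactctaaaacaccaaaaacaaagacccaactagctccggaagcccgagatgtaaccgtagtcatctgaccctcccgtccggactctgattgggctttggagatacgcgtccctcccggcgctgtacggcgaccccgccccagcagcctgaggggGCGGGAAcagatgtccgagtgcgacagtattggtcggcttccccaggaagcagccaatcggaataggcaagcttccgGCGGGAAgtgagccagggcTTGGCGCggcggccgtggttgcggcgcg

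Each of the 5 windows holds the core at least once, and that of BLM holds it 3 times. RefSeq promoters matched 36 of the 39 genes, all but FANCI, NBN and RAD54B, and 19 of these 36 windows (52.8%) hold the core. It is in 13.0% of all 35116 promoters in the table, non-coding genes included, and in 16.1% of the 22199 promoters of protein-coding genes. Genes of the list are counted once each, though some have more than 1 promoter entry (CHEK1 has 3), while the background counts promoters. Of 24 genes with a window that fell, FANCB included, 15 hold the core, and of the other 12 genes 4 hold it. The median log2 fold change was -0.78 for the 19 genes with the core and -0.27 for the 17 without. This 7-base search was chosen after the values were seen. A stricter search for the 8-base forms TTTCCCGC, TTTCGCGC, TTTGGCGC and TTTGCCGC, which contain the core, finds 5 of 36 windows (13.9%, those of XRCC2, EXO1, FANCA, FANCC and FANCD2), against 3.31% of all promoters. The letters TTTGAA, bound by regulators of cell cycle genes, are in 3 of 36 windows (8.33%, against 15.2% of all promoters), and CCAAT is in 16 (44.4%, against 34.6%). The ETS letters CCGGAAGT are in 6 windows (16.7%, against 4.14%). Of promoters of protein-coding genes, 4.1% hold the 8-base forms, 12.4% TTTGAA, 34.7% CCAAT and 5.34% the ETS letters. The 8-base forms are in 4 of the 24 genes that fell and 1 of the other 12, and TTTGAA in 1 and 2. CCAAT is in 12 and 4, and CCGGAAGT in 4 and 2. Median log2 fold changes with and without were -1.05 and -0.45 for the 8-base forms and -0.11 and -0.57 for TTTGAA. They were -0.6 and -0.36 for CCAAT and -0.55 both ways for CCGGAAGT. None of these splits was tested. A match describes letters in these windows and is not a measured binding site.

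BRCA1 and 3 of its 4 partners in the list fell, where 34.8% of all genes tested did so. BRCA1, which with BARD1 forms a ubiquitin ligase at broken ends, had 67.4, 70.7 and 69.5 CPM (counts scaled to the library's total and TMM-normalised) in the sh-control libraries and 43.8, 44.5 and 44.7 CPM in the sh-circFTO libraries. The groups lay well apart, with a log2 fold change of -0.64 (SE 0.0597, adjusted p = 1.01e-10). BRCA2, which loads the recombinase on single-stranded DNA, had 40.2, 33.1 and 38.1 CPM in sh-control and 23.9, 23.2 and 21.9 CPM in sh-circFTO. Its groups did not overlap either, at -0.69 on the log2 scale (SE 0.0858, adjusted p = 3.50e-08). BARD1 fell from between 17.5 and 22.3 CPM to between 10.5 and 13.5 CPM (-0.78), and BRIP1, a helicase that binds BRCA1, from 28.0 ± 1.51 to 13.8 ± 1.58 CPM (-1.02; SD, n = 3, as for all such pairs). BRIP1 reached an FPKM of 1 in the 3 sh-control libraries and in no sh-circFTO library, so it passed the filter through the group where it was high. PALB2, the bridge between BRCA1 and BRCA2, stood apart from this set. It had 66.5, 62.1 and 62.8 CPM in sh-control and 65.3, 59.8 and 62.0 CPM in sh-circFTO, groups that overlap, with a log2 fold change of -0.03 (SE 0.0592, adjusted p = 0.623). BRCA1 (ENSG00000012048) lies on chromosome 17 from 43044295 to 43170245 and BRCA2 (ENSG00000139618) on chromosome 13 from 32315086 to 32400268, both on GRCh38.

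The 5 genes tested of end resection, BLM included, all fell (34.8% of all genes tested fell), and 4 did when only library size was used. EXO1, the exonuclease of long-range resection, had 16.3, 14.7 and 16.1 CPM in sh-control and 7.98, 7.52 and 5.52 CPM in sh-circFTO. The highest sh-circFTO library was below the lowest sh-control library, and the level was 44.5% of control (log2 fold change -1.17, SE 0.136, adjusted p = 9.57e-09). BLM, the helicase that unwinds ends and dissolves joined molecules, had 19.2, 17.2 and 18.1 CPM against 7.19, 9.38 and 9.63 CPM. Its groups were apart too, at 48.3% of control (-1.05, SE 0.122, adjusted p = 1.01e-08). RBBP8, which encodes CtIP, the factor that starts resection, fell from 59.8 ± 2.40 to 37.3 ± 2.51 CPM (-0.68). The complex it works with changed less: MRE11, the nuclease, fell from 50.4 ± 3.93 to 38.0 ± 1.93 CPM (-0.41), and NBN, its regulatory subunit, from 42.7 ± 2.01 to 35.8 ± 2.91 CPM (-0.25). The NBN call was lost with library size only (adjusted p = 0.190) and without sh-circFTO replicate 3 (adjusted p = 0.0544). RAD50, the ATPase of that complex, was under the filter at 11.2 ± 1.75 and 9.91 ± 1.64 CPM. In GENCODE release 29, 79.7% of its exonic bases lie also in a same-strand gene, AC116366.3, which has 2 counts in sh-circFTO and 0 in sh-control. The RAD50 level is therefore uncertain.

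Of 8 strand-exchange genes tested 4 fell and 2 rose, where 34.8% and 34.9% of all genes tested did so. XRCC2 had 23.0, 23.5 and 24.8 CPM in sh-control and 9.04, 7.16 and 7.19 CPM in sh-circFTO. No library came near the other group, and its level was 32.7% of control, the lowest of the 36 genes tested (log2 fold change -1.61, SE 0.115, adjusted p = 2.87e-13). RAD51AP1 had 38.3, 35.2 and 38.2 CPM against 15.2, 18.1 and 15.5 CPM. That is 43.9% of control with the groups apart (-1.19, SE 0.0889, adjusted p = 9.76e-13). RAD54L, a motor protein that moves along the paired strands, fell from 37.2 ± 2.60 to 20.2 ± 1.65 CPM, and XRCC3 from 13.8 ± 0.241 to 9.47 ± 1.39 CPM. Opposite-strand genes cover 76.7% of XRCC3's exonic bases (KLC1, which rose by 0.82 on the log2 scale) and 25.1% of RAD54L's (LRRC41, which rose by 0.17). The sources used here do not give the use of strand in counting, so reads of these genes may be mixed.

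RAD52, which anneals single strands, was one of the genes that rose. It had 19.6, 23.2 and 21.0 CPM in sh-control and 30.4, 28.7 and 27.2 CPM in sh-circFTO. All sh-circFTO libraries were above all sh-control libraries (log2 fold change 0.43, SE 0.0887, adjusted p = 8.62e-05). RAD51C, which sits in both complexes of strand-exchange paralogues, had 29.3, 26.2 and 30.9 CPM against 31.3, 33.1 and 35.3 CPM. The highest sh-control library lay just under the lowest sh-circFTO library, at 0.21 on the log2 scale (SE 0.0827, adjusted p = 0.0270). Its call was lost with DESeq2 (adjusted p = 0.0511), with no filter above 1 count (adjusted p = 0.0675), and without sh-control replicate 1, sh-control replicate 2 or sh-circFTO replicate 3 (adjusted p = 0.0565, 0.187 and 0.0796). RAD51D, a partner of XRCC2, had 16.6, 11.9 and 14.3 CPM against 16.6, 15.1 and 14.6 CPM, and its groups overlap (0.11, SE 0.119, adjusted p = 0.408). RAD54B had 6.70, 6.17 and 4.96 CPM against 5.41, 4.27 and 4.75 CPM (-0.31, SE 0.181, adjusted p = 0.128), and 59.1% of its exonic bases are shared with the same-strand gene FSBP, which rose by 0.70. Without sh-control replicate 3 RAD54B was called lower, at -0.43 (adjusted p = 0.0471). RAD51B was under the filter, at 6.41 ± 0.823 and 5.53 ± 0.0516 CPM.

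**Figure D2:**
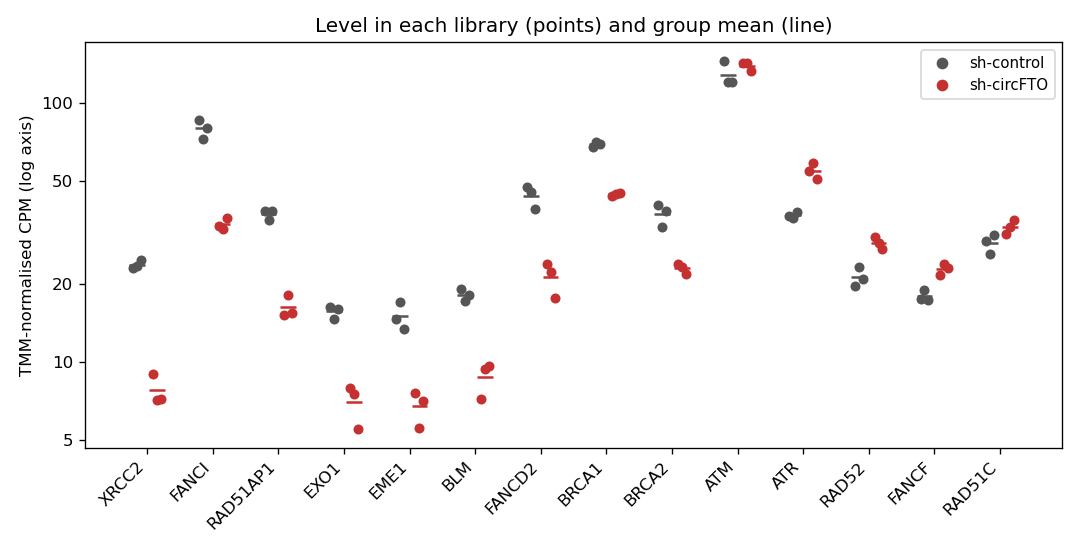
TMM-normalised CPM (vertical log axis) of 14 genes in each of the 6 libraries, with the mean of each group as a line. FANCI drops from 72.6 to 86.1 CPM in sh-control to between 32.6 and 36.1 CPM in sh-circFTO, while ATR rises from below 38 to at least 51.0 CPM.

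Of the 5 checkpoint genes 3 fell, ATR rose and ATM did not pass the test (34.8% of all genes tested fell and 34.9% rose). ATR, the kinase that senses single-stranded DNA at stalled forks, had 36.7, 35.8 and 37.9 CPM in sh-control and 54.4, 58.3 and 51.0 CPM in sh-circFTO. Every sh-circFTO library exceeded every sh-control library, and the rise, to 148% of control, was the largest of the 36 genes tested (log2 fold change 0.57, SE 0.0686, adjusted p = 1.86e-08). ATRIP, the subunit that brings ATR to DNA, had 14.2, 13.1 and 14.6 CPM against 8.26, 9.20 and 8.35 CPM and fell (-0.70, SE 0.124, adjusted p = 1.24e-05). In GENCODE release 29, 27.9% of ATRIP's exonic bases are shared with the same-strand gene TREX1, which is listed at 0 in all 6 libraries. CHEK1, the effector kinase below ATR, fell from 57.1 ± 4.81 to 38.4 ± 2.26 CPM (-0.57), and CHEK2, the effector below ATM, from 35.3 ± 1.10 to 22.4 ± 1.92 CPM (-0.66). CHEK2 has near-identical partial copies in the genome, so its counts are uncertain. ATM, the kinase that responds to broken ends, had 145, 120 and 120 CPM against 142, 142 and 132 CPM. One sh-control library lay above all sh-circFTO libraries, and the difference of 0.11 did not pass the test (SE 0.0576, adjusted p = 0.0795). It did pass without that library (0.20, adjusted p = 0.00162), without sh-circFTO replicate 3 (0.17, adjusted p = 0.0251) and with library size only (0.26, adjusted p = 0.000307).

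Of the 7 Fanconi core genes tested, 5 fell and 1 rose (34.8% and 34.9% of all genes tested), and with library size only 3 fell. FANCA fell from 51.2 ± 5.86 to 32.3 ± 1.12 CPM (-0.67), FANCE, which binds FANCD2, from 18.0 ± 1.81 to 10.5 ± 1.06 CPM (-0.78), and FANCG from 19.9 ± 1.54 to 14.5 ± 2.11 CPM (-0.45). Opposite-strand ZNF276, which shares 23.6% of FANCA's exonic bases, did not pass the test (-0.08). Calls were weaker for FANCL, the ubiquitin ligase of the complex, from 43.5 ± 1.59 to 38.7 ± 2.16 CPM (-0.17, SE 0.0702, adjusted p = 0.0369), and for FANCM, the translocase that anchors it, from 10.3 ± 0.821 to 8.23 ± 0.634 CPM (-0.32, SE 0.137, adjusted p = 0.0395). Neither FANCL (-0.02, adjusted p = 0.806) nor FANCM (-0.17, adjusted p = 0.258) was called with library size only, and each was lost in DESeq2 (adjusted p = 0.0701 and 0.0752). FANCM was also lost with no filter above 1 count (adjusted p = 0.0522). FANCL was lost without sh-control replicate 2 or any one sh-circFTO library (adjusted p from 0.0587 to 0.268), and FANCM without sh-control replicate 1, sh-control replicate 3 or any one sh-circFTO library (0.0565 to 0.181). FANCF, an adaptor encoded by a compact gene on chromosome 11, went the other way. It had 17.5, 19.0 and 17.3 CPM in sh-control and 21.6, 24.0 and 23.0 CPM in sh-circFTO, with no overlap (0.35, SE 0.0931, adjusted p = 0.00144). FANCC had 22.4, 17.9 and 23.6 CPM against 19.4, 21.7 and 18.0 CPM, and its groups overlap (-0.11, SE 0.105, adjusted p = 0.370). Without sh-control replicate 2 it was called lower, at -0.23 (adjusted p = 0.0479). FANCB was under the FPKM filter. In the fit with the filter on counts it had 3.49, 4.55 and 3.89 CPM against 2.07, 2.17 and 2.50 CPM and was called lower (-0.84, SE 0.243, adjusted p = 0.00250). RAD50 and RAD51B were not called in that fit (-0.19, adjusted p = 0.218, and -0.23, adjusted p = 0.230).

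The pair that the core complex modifies fell together. FANCI had 86.1, 72.6 and 80.1 CPM in sh-control and 33.5, 32.6 and 36.1 CPM in sh-circFTO. Its groups were far apart, at 42.9% of control (log2 fold change -1.22, SE 0.0688, adjusted p = 1.43e-15). FANCD2 had 47.2, 45.3 and 39.1 CPM against 23.8, 22.3 and 17.7 CPM. It stood at 48.4% of control with no overlap (-1.05, SE 0.0942, adjusted p = 5.02e-11), and pseudogene copies of parts of FANCD2 leave its counts uncertain. FANCI (ENSG00000140525) lies on chromosome 15 from 89243945 to 89317261 and FANCD2 (ENSG00000144554) on chromosome 3 from 10026370 to 10101932.

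Of the 4 structure-specific nuclease genes, 2 fell (34.8% of all genes tested fell). EME1, the regulatory subunit of the nuclease MUS81, had 14.7, 17.0 and 13.4 CPM in sh-control and 7.62, 5.59 and 7.06 CPM in sh-circFTO. The groups were apart, at 44.6% of control (-1.17, SE 0.140, adjusted p = 1.75e-08). MUS81 itself had 30.4, 33.7 and 26.5 CPM against 29.2, 27.1 and 28.0 CPM, which overlap (-0.11, SE 0.0874, adjusted p = 0.274). Without sh-control replicate 3 it was called lower, at -0.20 (adjusted p = 0.0449). SLX4, the scaffold that holds several nucleases, had 12.9, 16.7 and 15.6 CPM against 14.7, 14.4 and 16.1 CPM (-0.00, SE 0.113, adjusted p = 0.986). FAN1, a nuclease that binds ubiquitinated FANCD2, fell from 34.1 ± 2.76 to 28.4 ± 2.47 CPM (-0.27), a call lost with library size only (adjusted p = 0.199) and without sh-circFTO replicate 2 (adjusted p = 0.0889). Opposite-strand MTMR10, which shares 24.3% of FAN1's exonic bases, fell by 0.71 on the log2 scale.

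Levels between genes can be compared only per length, here as FPKM. In sh-control FANCL was highest at 17.1 ± 0.633 FPKM, followed by RAD51AP1 at 13.8 ± 0.647, PALB2 at 12.8 ± 0.520 and RBBP8 at 11.2 ± 0.416 FPKM. In sh-circFTO FANCL was at 16.9 ± 0.954 and PALB2 at 13.8 ± 0.609 FPKM, while RAD51AP1 stood at 6.70 ± 0.650 FPKM, below FANCF at 7.31 ± 0.382 FPKM. ATM, the highest of the 39 genes by CPM, was at 3.12 ± 0.367 FPKM in sh-control, with an exonic length of 39184 bases in the table. The lowest in sh-control was RAD51B at 0.817 ± 0.107 FPKM.

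The ratio of partners within a library does not depend on the scaling between libraries. Of 16 pairs compared, 12 had ratios that did not overlap between the groups and 4 overlapped. Of single genes tested 71.5% did not overlap, and no share over other gene pairs was computed, so the count says nothing particular to these partners. For each of the 12 a two-sided exact permutation test gave p = 0.1, which is the floor for 3 against 3, and 0.133 after Benjamini-Hochberg adjustment over the 16. The XRCC2 to RAD51D ratio changed most: its log2 value was 1.69, 2.21 and 2.02 in sh-control and 0.35, 0.15 and 0.21 in sh-circFTO. ATRIP to ATR moved from 0.93 ± 0.0441 to -0.33 ± 0.0532. The size of that shift does not depend on gene length, but its position against 0 does: the table gives ATR an exonic length of 27234 bases and GENCODE release 29 gives 12496. ATRIP also shares exonic bases with TREX1, as above. EME1 to MUS81 moved from -0.28 ± 0.0367 to -1.34 ± 0.183, CHEK1 to ATR from 2.91 ± 0.0861 to 1.78 ± 0.0592 and BRCA2 to PALB2 from -2.21 ± 0.107 to -2.87 ± 0.0685. Ratios that overlapped were those of BRCA1 to BARD1 (difference 0.13), FANCD2 to FANCI (0.17), MRE11 to RAD50 (-0.23) and NBN to RAD50 (-0.08). The exact p of these 4 lay between 0.3 and 0.6. The counts of RAD50 and FANCD2 are uncertain, as above, and so are the ratios that use them.

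**Figure D3:**
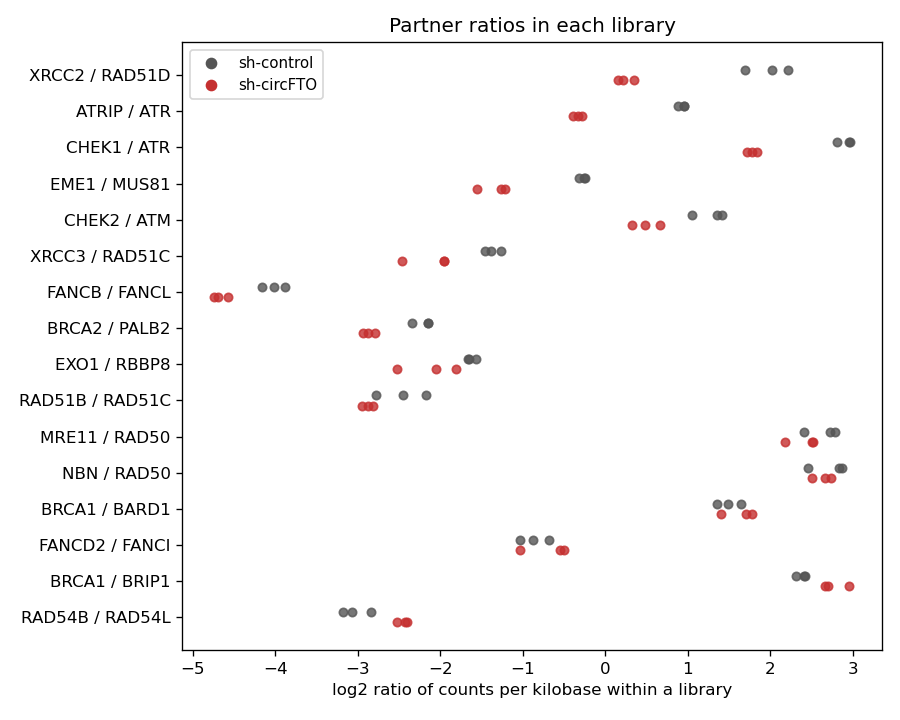
Log2 ratio of counts per kilobase of 16 partner pairs (horizontal axis) in each library, ordered by the difference between the groups. XRCC2 to RAD51D shifts by -1.74 and ATRIP to ATR by -1.27, and the points of FANCD2 to FANCI overlap.

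Several of the genes start back to back with a neighbour on the other strand. In GENCODE release 29, 11 of the 39 genes have such a neighbour among the genes with enough counts, with starts at most 1000 bases apart. Of the 11 neighbours 6 rose, 2 fell and 3 did not pass the test (34.9% of all genes tested rose and 34.8% fell), while 8 of the 11 genes of the list fell (FANCB in the fit with the filter on counts). EME1 and MRPL27, a mitochondrial ribosomal protein gene, start 6 bases apart. MRPL27 was at 36.8 ± 0.364 and 36.3 ± 2.24 CPM (-0.02, SE 0.0732, adjusted p = 0.831), against the fall of EME1 by 1.17 on the log2 scale. C12orf4 starts 382 bases from RAD51AP1 and rose from 16.1 ± 0.216 to 21.6 ± 0.384 CPM (0.42), and ANKRD49 starts 71 bases from MRE11 and rose from 12.8 ± 0.407 to 16.1 ± 0.259 CPM (0.33). ZFYVE21, 226 bases from XRCC3, rose by 0.69. The non-coding NBR2, 127 bases from BRCA1, and HSCB, an iron-sulfur co-chaperone gene 187 bases from CHEK2, fell with them, from 30.6 ± 1.53 to 16.2 ± 1.23 CPM and from 15.2 ± 1.39 to 10.4 ± 1.79 CPM. NPAT, a histone gene activator 190 bases from ATM, rose by 0.40, and DCTN5, 82 bases from PALB2, by 0.34. The count ratio of the gene to its neighbour was lower in all 3 sh-circFTO libraries for 8 of the 11 pairs, higher for BRCA1 and NBR2, and overlapped for 2. Groups of single genes did not overlap for 71.5% of those tested, and no share over other neighbouring pairs was computed. The exact permutation test could give no p below 0.1 for any of them.

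**Figure D4:**
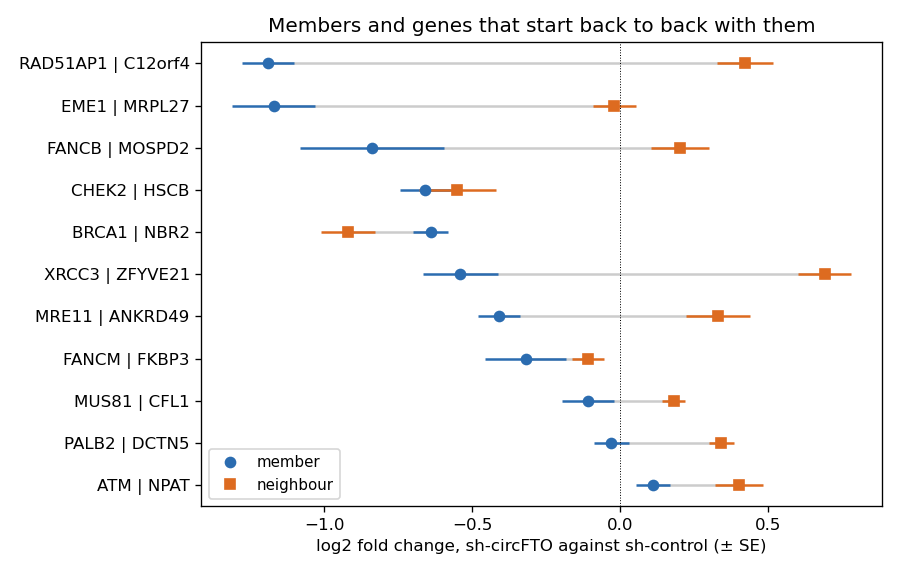
Log2 fold change (± SE) of 11 genes of the list (circles) and of the gene that starts back to back with each (squares). The EME1 circle is at -1.17 and the MRPL27 square at -0.02, whereas the BRCA1 and NBR2 points are both below 0.

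Other genes of the same pathways came from a list of 63. Of 61 tested, 24 fell (39.3%, against 34.8% of all genes tested) and 15 rose (34.9% of all genes tested did), with a median of -0.07. With scaling by library size alone 21 were called lower and 20 higher, with a median of 0.08. All 12865 genes tested then gave 3471 lower and 5700 higher. USP1, the enzyme that removes ubiquitin from FANCD2 and FANCI, fell to 45.6% of control (-1.13, SE 0.0604, adjusted p = 3.99e-16). ERCC1, subunit of a nuclease that unhooks crosslinks, rose to 267% of control (1.42, SE 0.0579, adjusted p = 7.12e-19). MAD2L2, a shieldin and polymerase zeta subunit, changed by -0.66, and RFWD3, a ubiquitin ligase for the single-strand binding protein RPA, by -0.33. Among the 12 genes of break signalling and the BRCA1-A complex 5 fell and 5 rose: TP53BP1, which restrains resection, rose by 0.99, the histone variant gene H2AX changed by -0.70, and RNF8 and ABRAXAS1 by -0.50 and -0.42. Of 27 recombination helpers 13 fell and 4 rose, with MMS22L and its partner TONSL at -1.13 and -0.87, PARPBP at -1.10 and FBH1 at -0.55. Of 10 genes of ATR signalling 2 fell and 3 rose. RAD1 changed by -0.89 and HUS1, in the same clamp, by 0.61, ETAA1, another activator of ATR, by 0.46 and the phosphatase gene CDC25A by -0.45.

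Repair genes outside homologous recombination are given for comparison. Of 44 tested, 19 fell (43.2%, against 34.8% of all genes tested) and 16 rose (34.9% of all genes tested did), at a median of -0.03. With library size only 13 fell and 21 rose, where 3471 and 5700 of all 12865 genes did so. Of 11 end-joining genes 5 fell and 2 rose, with POLQ, the polymerase of microhomology-mediated joining, at -0.99, XRCC4 at -0.81, XRCC5 at 0.45 and LIG4 at 0.41 (2 lower and 4 higher with library size only). Nucleotide excision repair had 7 of 10 genes higher and 2 lower, with the damage sensor XPC at 0.90, CETN2 at 0.73, DDB1 at 0.27 and RAD23B at -0.32. Of 8 mismatch repair genes 5 fell and 2 rose (3 and 3 with library size only), with MSH3 at -0.74, MLH3 at -0.47, MSH6 at -0.29 and PMS2 at 0.32. Of 15 base excision repair genes 7 fell and 5 rose (7 and 6 with library size only). OGG1 was at -1.08, APEX1 at -0.63, TDG at 0.73 and NTHL1 at -0.96. No test compared these lists with one another.

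**Figure D5:**
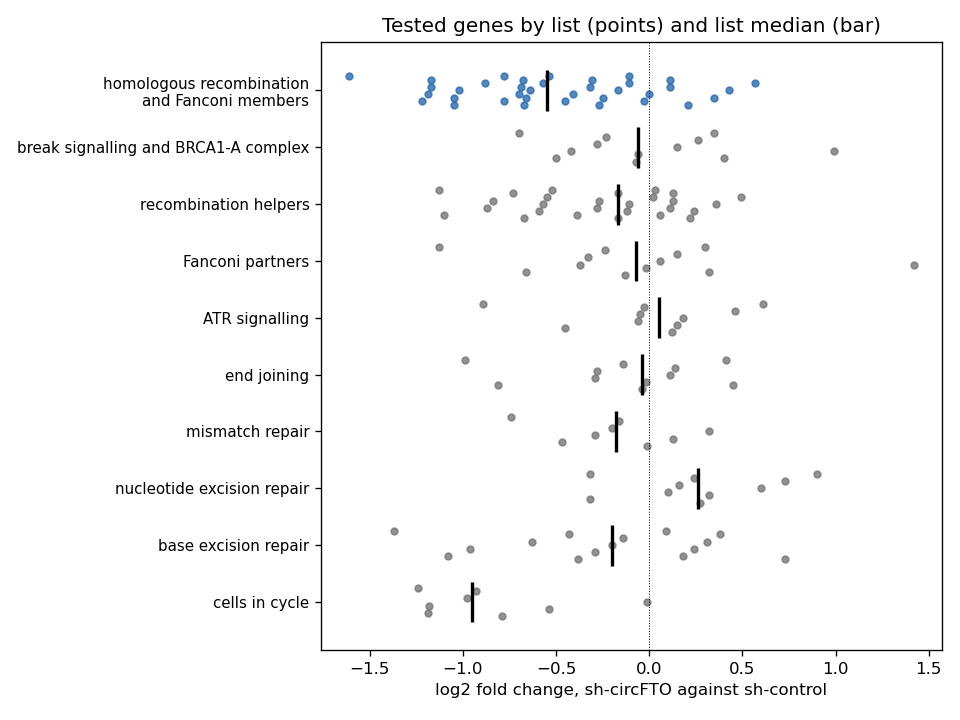
Log2 fold change of each tested gene (points) and the median of each list (bars) for the homologous recombination and Fanconi genes, other genes of the pathways, other repair pathways and markers of cycling cells. The median is -0.55 in the top row, between -0.20 and 0.26 in the other repair lists, and -0.95 for the cycling markers.

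Markers of cells in cycle moved with the repair genes. Of 8 markers, 7 fell, where 34.8% of all genes tested did so. With library size only 7 fell again and PCNA was called higher, where 3471 and 5700 of all 12865 genes were. The summed level of the 8 markers ran from 2260 to 2320 CPM in sh-control and from 1290 to 1310 CPM in sh-circFTO. CCNA2, MKI67, CDK1 and TOP2A changed by -1.24, -1.19, -1.18 and -0.93, while PCNA was at -0.01 (SE 0.0416, adjusted p = 0.864). Among 20 genes of the E2F and DREAM regulators 14 fell and 3 rose, where 34.8% and 34.9% of all genes tested did so. MYBL2 changed by -2.49, E2F1 by -1.47 and FOXM1 by -1.14, and CDKN1A, the cell cycle inhibitor p21, rose by 1.73. The part of the cell cycle in the fall of the repair genes was not tested, and in bulk RNA fewer cells in S phase and less RNA per cell cannot be told apart.

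Total counts ran from 13361333 to 16178079 per library. The host gene FTO was at 59.4, 57.0 and 55.7 CPM in sh-control and 55.5, 56.5 and 59.3 CPM in sh-circFTO (-0.01, SE 0.0603, adjusted p = 0.937), and gene counts do not measure circFTO, so the knockdown was not checked. All 8 hepatocyte and hepatoma markers, AFP and ALB among them, were expressed and fell, where 34.8% of all genes tested did so. Their median log2 fold change was -0.79. With library size only 6 of the 8 were called lower, where 3471 of all 12865 genes tested were. The summed level of the 8 markers was 24100 to 24300 CPM in sh-control and 14300 to 14500 CPM in sh-circFTO. AFP and ALB changed by only -0.25 and -0.21, and APOB, SERPINA1, HNF4A and TF by -1.59, -0.96, -1.17 and -0.62. The 7 fibroblast markers summed to at most 6.01 CPM in any library, with LUM at 0. The 5 endothelial markers summed to 9.77 to 14.5 CPM in sh-control and 63.0 to 65.9 CPM in sh-circFTO, with KDR at 0. Most of this rise was in TIE1, from 4.03 ± 0.107 to 51.4 ± 0.956 CPM, and PECAM1 went from 7.65 ± 2.21 to 12.2 ± 1.22 CPM. VWF reached at most 0.902 CPM and CDH5 at most 0.21 CPM in any library. The 6 macrophage and blood markers summed to 954 to 1060 CPM and 198 to 201 CPM, nearly all LYZ, with PTPRC, CD163 and HBB at 0.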

How the data were processed

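RNA was measured in 6 HepG2 libraries, grouped by the labels. The deposited table holds raw counts of the 6 libraries by Ensembl ID and, per the file headers, FPKM from the authors. The deposited FPKM equalled the count divided by exonic length and total count to within 0.005. The sources used here name no aligner, counting tool, strand setting or annotation, and the submitters' processing notes list the builds GRCm38, mm10 and hg18. All 39 gene IDs were in GENCODE release 29 on GRCh38, 38 with both ends within 5000 bases, so coordinates are given on GRCh38 (the start of FAN1 differed by 13293 bases).

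Genes reaching 1 FPKM in 3 or more libraries were tested with edgeR 4.0.16 (R 4.3.3): TMM factors on total counts, a quasi-likelihood test and Benjamini-Hochberg adjustment over all tested genes at 0.05. CPM use the same factors, and SE is the log2 fold change divided by the square root of F. Ratios within a library had 0.5 added to each count. Neighbours were counted where starts on opposite strands were up to 1000 bases apart, or up to 200 bases overlapping. The fit was tested on simulated data. Alternatives were library size only, median-of-ratios factors, counts without mitochondrially encoded genes, DESeq2 1.42.0, other filters, a replicate block and each library left out.

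The rule named every gene of the list, giving full values for up to 6 called in each direction with the largest change, for BRCA1, BRCA2, FANCD2, FANCI, ATM, ATR and FTO, and for those not called, and up to 4 genes of each other list by adjusted p. The genes and lists were chosen with earlier results of these data known.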

Additional observations from a re-analysis of the deposited data

How the results depend on the processing

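The counts of genes called lower and higher stayed within 1.5 times their values under every alternative run, from 21 to 26 lower and 3 to 5 higher. With each library left out, 22 to 25 were lower and 3 to 4 higher, and the median log2 fold change ran from -0.59 to -0.52. Then 12 to 14 of the 16 partner ratios did not overlap. That count could only stay or rise, as leaving a library out cannot make separate groups overlap. Scaling by library size alone moved the median of the 36 genes to -0.41, turned that of the other pathway genes to 0.08, and turned FTO to 0.14 (adjusted p = 0.0413 in edgeR), as the median of all tested genes moved to 0.15. With no filter above 1 count the median of the other pathway genes was -0.13 over 63 genes; the cause was not tested. With no count added, 12 partner ratios again did not overlap.

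Same-numbered libraries of the groups had correlations of -0.00, -0.01 and 0.06 in their deviations from the group means, so the numbers were not taken as pairs. With the replicate block 25 genes were lower and 5 higher, ATM being added (0.12, adjusted p = 0.0246 in edgeR), at an unmoved median of -0.55. Calls for NBN, RAD51C, FANCL, FANCM and FAN1 rest on small changes and were lost under at least 1 alternative, and those for ATM, RAD54B, FANCC and MUS81 were gained under at least 1. The lowest of the 39 genes had 279 counts over the 6 libraries.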
